A study of Caenorhabditis elegans with 2 samples.

Results

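The regions described here are the places in the ChIP-seq profile of MADF-10 whose point of highest signal, the summit, lay within 200 bp of a nuclear tRNA gene. Of the 29978 nuclear regions in the authors' list for both replicates pooled, 542 (1.81%) met this rule. They lay at 504 of the 612 nuclear tRNA genes annotated on WBcel235, the assembly behind build ce11. The rule used position alone and no signal value. MADF-10 is a worm protein with a MADF domain, a fold of the Myb type found in DNA-binding proteins. All animals were of strain OP508 (unc-119(tm4063) III; wgIs508), which carries MADF-10 joined at its C terminus to GFP and FLAG. Chromatin of whole hermaphrodites was taken from young adults, 68 h after synchronisation of starved L1 larvae, and was precipitated with an antibody against GFP. The study held 2 biological replicates of this 1 group and no second condition. Since the tagged protein came from a transgene and the chromatin from whole animals, the signal is that of the tagged form averaged over all tissues. No control library was analysed here.

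A tRNA carries 1 amino acid to the ribosome and reads its codons through 3 anticodon bases, and tRNAs for the same amino acid form an isotype. RNA polymerase III transcribes tRNA genes. Their promoter lies inside the gene: the factor TFIIIC recognises the A box near the gene start and the B box near the gene end, TFIIIB is then placed just upstream, and a run of T after the gene ends the transcript. Worm tRNA genes are short, often present as many identical copies, scattered singly or in small groups, and numerous on the X chromosome.

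The strongest of the regions lay over a pair of alanine tRNA genes in an intron of him-4, which encodes hemicentin, a protein of the extracellular matrix. The pair is shown because the summit fell between the genes. F15G9.t1 reads with anticodon TGC and F15G9.t2 with AGC; both lie on the plus strand, 86 bp apart. The stretch below is chrX:9743589-9743818 (ce11, plus strand, RefSeq sequence of WBcel235), with the genes in capitals.
F15G9.t1 and F15G9.t2: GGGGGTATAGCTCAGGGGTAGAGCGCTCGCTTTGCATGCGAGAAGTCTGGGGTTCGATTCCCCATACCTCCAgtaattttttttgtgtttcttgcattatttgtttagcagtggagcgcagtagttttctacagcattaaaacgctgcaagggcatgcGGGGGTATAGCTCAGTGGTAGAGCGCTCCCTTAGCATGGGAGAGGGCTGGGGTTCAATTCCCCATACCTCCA
The pooled region ran from 9743492 to 9743865, with a signal of 368 when pooled, 119 in replicate 1 and 251 in replicate 2. It ranked 98 among the pooled nuclear regions, 100 in replicate 1 and 101 in replicate 2.

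Next come strong single genes, given so that the internal promoter can be seen beside the values. Capitals mark the A box, searched in the first 30 bases as 11 letters with T, G, A and G fixed at letters 1, 3, 7 and 11, and the B box, searched as GTTCNANNC, both on the gene strand and allowed to start anywhere in their window. C33G3.t2 (lysine, chrX:14063946-14064018, minus strand) had the strongest region whose nearest gene is a lysine gene. R04D3.t2 (valine, chrX:13307034-13307106, plus strand) was 10th in signal. C04A11.t1 (leucine, chrX:13665555-13665673, plus strand) is longer, at 119 bases. C11E4.t1 (alanine, chrX:9622824-9622895, minus strand) has the same sequence as F15G9.t2 above.
C33G3.t2: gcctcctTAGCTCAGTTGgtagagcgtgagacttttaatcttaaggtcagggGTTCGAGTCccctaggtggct
R04D3.t2: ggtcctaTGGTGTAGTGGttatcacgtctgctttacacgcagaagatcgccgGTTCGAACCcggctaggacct
C04A11.t1: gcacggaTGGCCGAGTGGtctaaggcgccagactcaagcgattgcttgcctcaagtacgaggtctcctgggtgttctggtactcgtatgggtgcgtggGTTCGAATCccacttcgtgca
C11E4.t1: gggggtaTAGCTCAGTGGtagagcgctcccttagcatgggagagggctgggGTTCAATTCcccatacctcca
C33G3.t2 had a pooled signal of 309, with 107 and 205 in replicates 1 and 2. For R04D3.t2 the values were 273, 82.9 and 190. C04A11.t1 had 291, 83.3 and 206. At C11E4.t1 the signal was 167, with 67.1 and 97.2 in the replicates. The 4 summits lay inside or at the edge of their genes, and all were in the list of reproducible peaks.

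Of the 542 regions, 283 (52.2%, exact 95% interval 47.9 to 56.5) were in the authors' reproducible list, which passed an irreproducible discovery rate (IDR) threshold. Over all nuclear regions of the pooled list, 6.16% were in it. This list consists of the strongest pooled regions, those with a signal of 92.3 or more, so being reproducible and having a high pooled signal are not separate measurements. Regions at tRNA genes made up 15.3% of the nuclear reproducible peaks, while the sequence within 200 bp of a tRNA gene is 0.272% of the nuclear genome (273122 of 100272607 bp). In each replicate's own list, the 1847 strongest nuclear regions were set apart as the counterpart of the reproducible list. Replicate 1 had 563 regions at tRNA genes, of which 302 (53.6%) were among its strongest, against 7.13% of all its nuclear regions. Replicate 2 had 541, of which 259 (47.9%) were among its strongest, against 6.16% of all. The mean share was 50.8% ± 4.08 (SD, n = 2). In both replicates the share was thus far above that of all regions, by more than the replicates differed. Regions and genes are not replicates and there was no second group, so no test was made. Intervals cover counting error only.

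The signal at tRNA genes was of middle to high strength, and none was extreme. The median pooled signal was 96.1 at tRNA genes and 23.3 over all nuclear regions, a ratio of 4.14. The ratio was 3.19 in replicate 1 and 3.50 in replicate 2 (mean 3.34 ± 0.219, SD, n = 2), below the pooled value in both. Quartiles at tRNA genes were 55.0 and 143, and the values ran from 12.9 to 368. None of the 542 regions was above 400, while 80 other nuclear regions were, up to 19717. Among reproducible peaks alone, those at tRNA genes had a median of 140 (quartiles 114 and 174), and the others had 136 (109 and 189). The 2 kinds of reproducible peak therefore had like medians, and those at tRNA genes had the narrower spread.

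By rank, tRNA genes held 1 of the strongest 100 nuclear regions. They held 24 of the next 200, and their share was highest, at 21.0% (105 of 500), between ranks 501 and 1000. It fell to 12.2% between ranks 1501 and 2000, to 2.75% between 3001 and 5000 and to 0.320% past rank 10000.

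**Figure D1:**
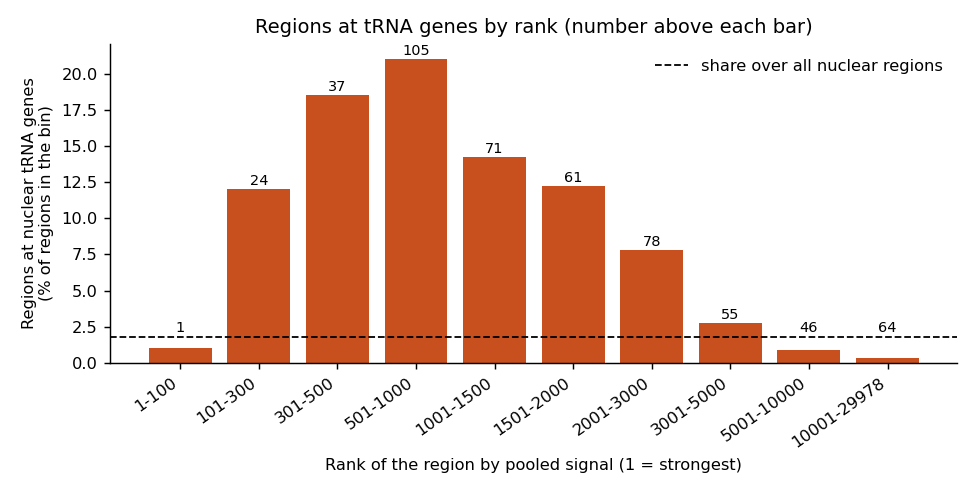
Share of regions at nuclear tRNA genes (vertical axis, percent of the regions in the bin) by rank of the pooled signal (horizontal axis), with the number of regions at tRNA genes above each bar and the share over all nuclear regions as a dashed line. The highest bar is 21.0%, for ranks 501 to 1000, and the first 100 ranks hold 1 such region.

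Nearly every region at a tRNA gene was seen in both replicates. Of the 542, 530 overlapped a region of replicate 1 by at least 1 bp, against 65.8% of all nuclear regions, and 528 overlapped one of replicate 2, against 84.6%. In both there were 518 (95.6%, exact 95% interval 93.5 to 97.1), against 55.9% of all, and 2 were in neither. With the stricter demand that a summit of each replicate lie within 100 bp of the pooled summit, 426 (78.6%) were left, and 30.6% of all nuclear regions. Of all nuclear reproducible peaks, 99.4% were in both replicates, and regions at tRNA genes were stronger than most. Of the 259 regions at tRNA genes outside the reproducible list, 240 (92.7%) were in both. The median signal of these 259 was 52.5. Regions of like signal were not compared, so whether presence followed from signal was not tested. Over the 518 regions, the log2 signals of the replicates were correlated with r = 0.602 (Pearson) and rho = 0.655 (Spearman). The points share the same 2 libraries, so this is a description. The pooled list was made from the same reads as the replicate lists and is not independent of them.

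**Figure D2:**
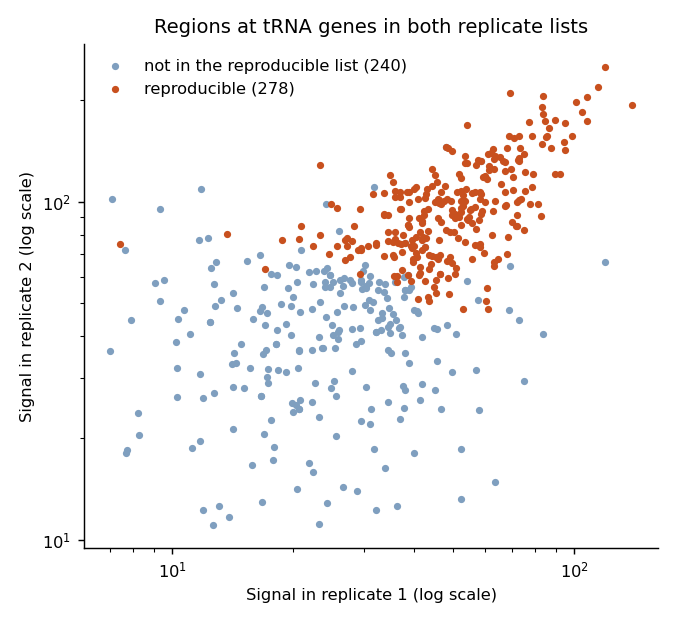
Signal in replicate 1 (horizontal axis) and replicate 2 (vertical axis), both in the authors' units on log scales, for the 518 regions at tRNA genes found in both lists. The 278 reproducible ones lie mostly at the upper right and the other 240 spread to low values in 1 or both replicates.

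Most summits lay on the tRNA gene or close to its start. Counted along the gene strand from the first base of the nearest gene, the median position was 19 bp (quartiles -9 and 69.8). Of the 542 summits, 167 were upstream of the gene, 252 inside it and 123 downstream. For the 283 reproducible regions the median was 13 bp, with 88 upstream, 155 inside and 40 downstream, and 70.3% lay within 50 bp of the gene start. The median was 19 bp in replicate 1 and 24 bp in replicate 2. The fullest intervals were the 20 bases just before the gene start, with 56 reproducible summits, and the first 20 bases of the gene, with 68. The median tRNA gene is 72 bases long and most regions are 420 bp wide, so these positions do not tell the boxes and the start apart.

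**Figure D3:**
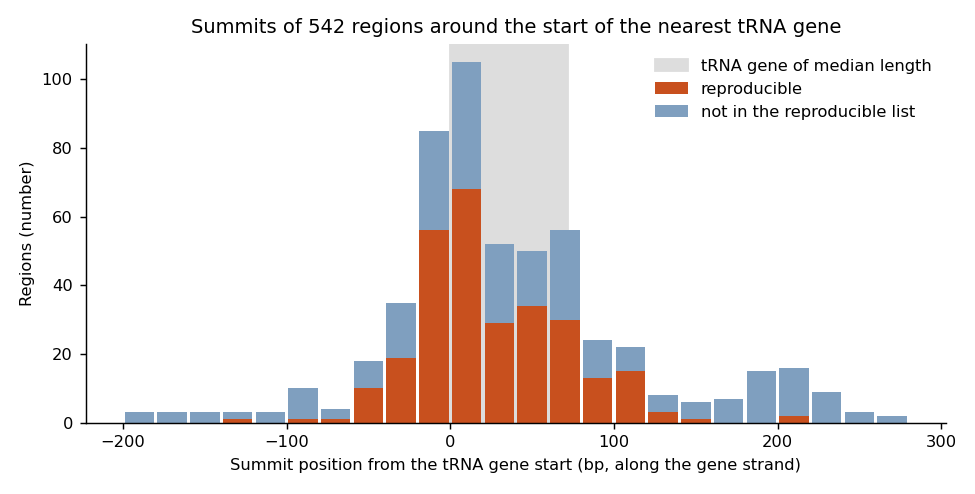
Number of summits (vertical axis) by position from the start of the nearest tRNA gene along its strand (horizontal axis, bp, in bins of 20), with a gene of median length shaded. Reproducible regions gather at the gene start, with 68 in the first 20 bases, and a smaller group of regions outside the reproducible list lies about 200 bp downstream of the start.

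The share of reproducible regions dropped with distance from the gene. It was 61.5% of the 252 with the summit inside a gene and 62.1% of the 190 at 1 to 50 bp. At 51 to 100 bp it was 17.9% of 39, at 101 to 150 bp 6.52% of 46, and at 151 to 200 bp 0 of 15. Many distant ones were second regions of a gene that had a stronger region nearer by. There were 67 of these, with a median distance of 123 bp and a median signal of 27.3, and 2 were reproducible. The other 475 had a median signal of 105, and 281 (59.2%) were reproducible. Just inside the limit of 200 bp lay regions near ZK994.t1 (lysine, 198 bp, signal 16.9), Y53C12A.t1 (phenylalanine, 194 bp, 14.7) and C12C8.t2 (glycine, 193 bp, 39.7). Just outside lay regions near F21A3.t1 (methionine, 201 bp, 13.2) and K03H6.t1 (aspartate, 204 bp, 21.9), and a strong reproducible one near C18A11.t2 (arginine, 201 bp, signal 521, rank 48). That last summit shares the interval chrX:8036135-8036877 with a region that did meet the rule at the same gene.

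By gene, 504 of the 612 nuclear tRNA genes (82.4%) had a region and 307 (50.2%) had a reproducible one. Another 197 had a region outside the reproducible list, and 108 had none in the pooled list. The 22 mitochondrial tRNA genes were not counted. Of the 108, 9 had a region in both replicate lists, 34 in replicate 1 alone, 12 in replicate 2 alone and 53 in neither. T01C1.t1, an arginine gene, was 1 of those 9: it had a signal of 53.4 in replicate 1 and 91.1 in replicate 2, ranks 667 and 1011, and no pooled region. The replicate regions at the 108 genes had median signals of 23.0 in replicate 1 and 46.4 in replicate 2. The pooled list and that of replicate 2 each hold 30000 entries.

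Every standard isotype was represented, and shares of genes with a region ran up to 96.3%. Aspartate genes had the highest share, with a region at 26 of 27 genes and 18 of them reproducible. Next was glutamate, with 38 of 41 and 30 reproducible (73.2%), the highest reproducible share of any isotype with at least 5 genes. The lowest was histidine, with 14 of 20 and 5 reproducible. Tryptophan had 9 of 12 with 3 reproducible, and tyrosine had 15 of 19 with 6. In median signal, taking the strongest region of each gene, alanine (125), lysine (120) and arginine (119) led and histidine (74.1), tryptophan (76.0) and tyrosine (78.0) were last.

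With each region given to the isotype of its nearest gene, the strongest region of most isotypes lay on X, as did 8 of the 10 strongest regions in all. Lysine and glutamate genes also share stronger regions whose nearest gene is of another isotype, at T23F1.t1 on V and at M02F4.t2 on X. M02F4.t1 (glycine) had a signal of 333, with 114 in replicate 1 and 219 in replicate 2; its region also serves a glutamate gene 116 bp away on the other strand. R04A9.t1 (glutamine, in an intron of ZK1193.2) had 295, 101 and 197, with its summit 122 bp upstream of the gene. That region, chrX:410116-410367, ended before the gene, which starts at 410391, so it lay beside the gene and not over it. F41D9.t3 (asparagine, in an intron of sulp-3, a sulfate permease family gene) had 283, 104 and 185. All 3 were high in both replicates. R11.t1 (tyrosine) had 282, 107 and 173, well above the tyrosine median. C28G1.t1 (glutamate) had 261, 84.4 and 173, F02D10.t2 (serine) 260, 83.5 and 182, and F38G1.t2 (aspartate, in an intron of the FGF gene egl-17) 259, 89.5 and 174. T28B4.t1 (phenylalanine) had 215, 89.4 and 121, and C06G1.t1 (histidine) 214, 92.2 and 121. These single histidine and tyrosine genes show that a low isotype median did not preclude a strong region. C02F12.t1 (methionine, elongator form) had 206, 72.4 and 133. sup-7, a tryptophan gene known for its amber suppressor alleles, had 176, 60.7 and 117. C37A2.t1 (cysteine, in an intron of cye-1, which encodes cyclin E) had 174, 71.9 and 99.98, and lies on chromosome I.

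As a ratio to the median of all regions of the same replicate list, histidine genes had 3.06 and 2.41 in replicates 1 and 2 (mean 2.74 ± 0.459, SD, n = 2). For tryptophan the ratio was 1.99 and 2.79 (2.39 ± 0.564), for tyrosine 2.51 and 3.28 (2.89 ± 0.542), and for alanine 3.58 and 4.73 (4.16 ± 0.819). Histidine, tryptophan and tyrosine thus differed by less than the replicates did. Each was lower than alanine within each replicate. Neighbours in the middle of the order were not separable either: valine was second in replicate 1 and seventeenth in replicate 2. Over the 20 isotypes the ratios of the replicates had Spearman's rho = 0.668, as a description over points that share the same libraries.

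**Figure D4:**
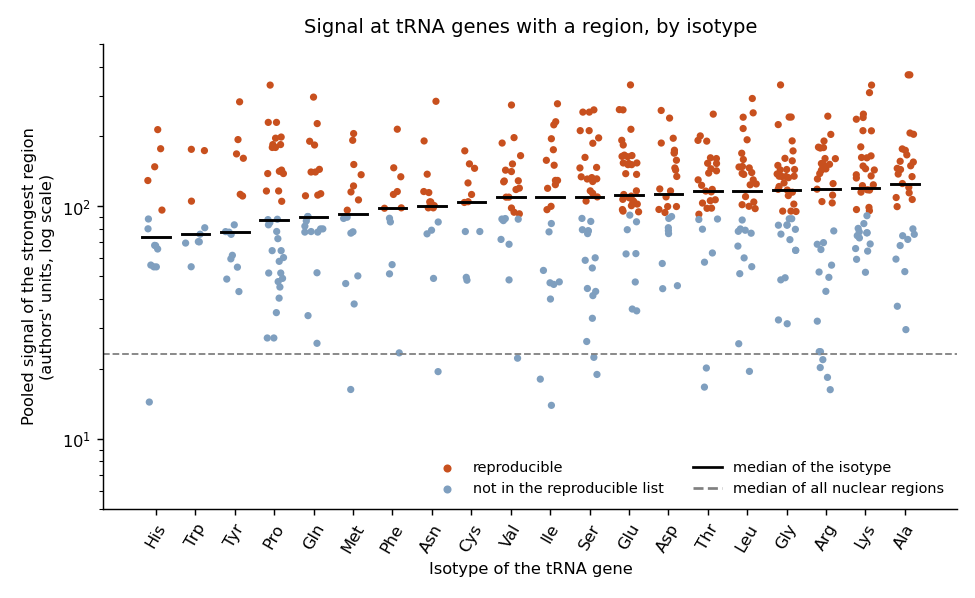
Pooled signal of the strongest region at each tRNA gene with a region (vertical axis, authors' units, log scale) by isotype (horizontal axis, ordered by median), with black lines for isotype medians and a dashed line for the median of all nuclear regions, 23.3. Isotype medians run from 74.1 for histidine to 125 for alanine, while single genes within most isotypes spread far more widely.

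Genes of the same isotype were also set apart by anticodon. Proline genes with anticodon TGG, the most frequent kind, had a region at 27 of 32 with 10 reproducible and a median signal of 78.0. Those with AGG had 4 of 6 with 3 reproducible and a median of 148, and those with CGG had 4 of 4 with 3 reproducible and 123. The ratios to the list median were 2.92 ± 0.116 for TGG, 3.60 ± 0.861 for AGG and 4.04 ± 0.658 for CGG (SD, n = 2), and TGG and AGG differed by less than the replicate spread. The AGG median rests on 4 genes, of which C16B8.t2 and C16B8.t3 share 1 region. All 7 leucine genes with anticodon CAA, which carry an intron, had a region, 5 of them reproducible. None of the 3 glycine genes with anticodon CCC had a region in any of the 3 lists. Methionine tRNAs come in an initiator form, which starts translation, and an elongator form. Of 10 genes of the initiator form 8 had a region and 3 a reproducible one (median 83.9), and of the other 10 methionine genes 8 had a region and 5 a reproducible one (median 102). The ratios to the list median were 3.13 ± 0.524 and 3.32 ± 0.0409 (SD, n = 2), a difference within the replicate spread. The single selenocysteine gene, K11H12.t1, had a region with a pooled signal of 62.4, and 25.4 and 37.0 in the replicates, outside the reproducible list.

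Isoleucine genes with anticodon TAT held a contrast among 3 near-identical genes. Among 7 genes, 2 had a region, and both were strong and reproducible. They are printed with K11C4.t1, which has no region and the same A box and B box (capitals). F57F5.t1 lies at chrV:12002176-12002260, C02B4.t1 at chrX:12661164-12661247 and K11C4.t1 at chrV:6917466-6917550, all on the plus strand.
F57F5.t1: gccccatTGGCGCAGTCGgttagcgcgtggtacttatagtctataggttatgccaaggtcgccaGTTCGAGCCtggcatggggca
C02B4.t1: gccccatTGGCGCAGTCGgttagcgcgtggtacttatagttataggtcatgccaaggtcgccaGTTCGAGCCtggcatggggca
K11C4.t1: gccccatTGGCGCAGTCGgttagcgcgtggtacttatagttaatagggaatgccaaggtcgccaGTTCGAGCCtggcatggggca
From F57F5.t1 to K11C4.t1 the changes are C41T, T42A, T48G and T49A, counted from the first base of the gene. From F57F5.t1 to C02B4.t1 there are 2 edits, and from C02B4.t1 to K11C4.t1 there are 3. F57F5.t1 had a pooled signal of 277, with 69.0 and 210 in replicates 1 and 2. At C02B4.t1 the values were 175, 54.0 and 130. Around K11C4.t1 the nearest summit was 12929 bp away among pooled regions, 7231 bp in replicate 1 and 13564 bp in replicate 2. The genes with a region lie between other genes, and K11C4.t1 lies in an intron of unc-68, the ryanodine receptor of muscle, on the strand opposite to it. The other 4 genes are identical to each other, differ from the 3 printed by 28 to 30 edits, and had no pooled region. F47A4.t1 of these had a weak region in replicate 1 alone, with a signal of 8.62.

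Identical copies differed from each other as much as different tRNA genes did. The 612 genes have 200 distinct sequences, and 469 genes share theirs with at least 1 other gene. In the 20 families of 10 or more identical genes, 281 of 317 genes had a region. Over these 281, the SD of log2 signal was 0.760, and within families it was 0.757. The ratio of the highest to the lowest copy ran from 2.52 to 12.8 between families, with a median of 5.48. In the largest family, glycine with anticodon TCC and 29 copies, 25 had a region, with signals from 31.3 at R04E5.t4 to 333 at M02F4.t1 and a median of 118. The order of copies was shared by the replicates to a varying degree: within families, Pearson's r of log2 signal ran from 0.137 (threonine AGT) to 0.924 (arginine ACG), with a median of 0.753. A region near 2 genes counts for each, and one beside a gene counts for it, as at R04A9.t1, the highest glutamine TTG copy. The placing of reads that match several copies is not stated. Genes with no identical copy avoid part of that doubt. Of 143 such genes, 96 (67.1%) had a region and 49 a reproducible one, with a ratio to the list median of 3.41 ± 0.409 (SD, n = 2). For the 99 genes with more than 20 copies the counts were 91 and 59 and the ratio 3.59 in replicate 1 and 4.40 in replicate 2.

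**Figure D5:**
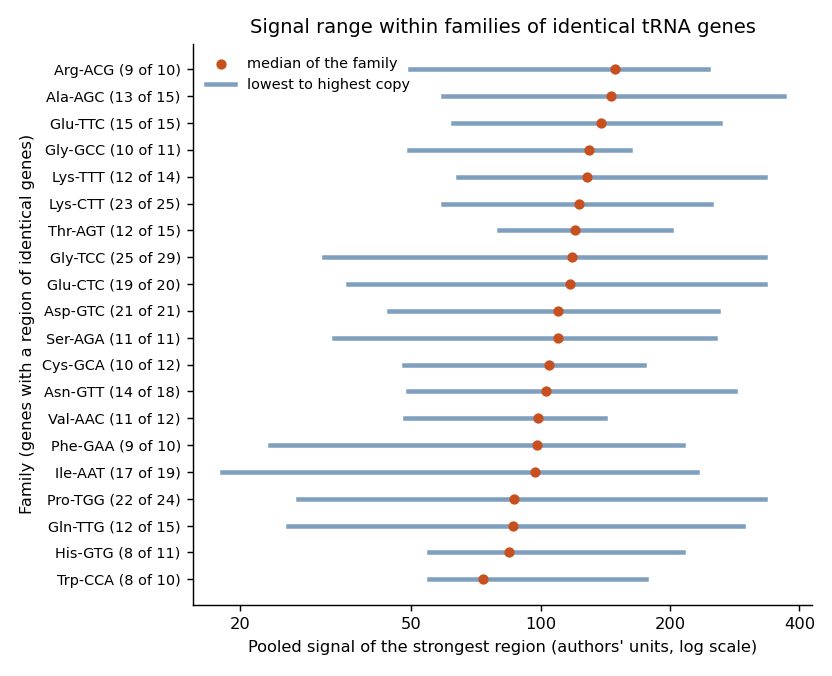
Pooled signal (horizontal axis, authors' units, log scale) in the 20 families of 10 or more identical tRNA genes (vertical axis, with genes that have a region out of all copies), as the range from lowest to highest copy (line) and the median (dot). The lines of all families overlap, while the medians lie between 73.3 and 149.

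The arginine family with anticodon ACG shows what such copies share. Its 10 genes are all on X and have the sequence below (A box and B box in capitals), followed by the 60 bases before the copies with the highest signal and with a low one.
Arg-ACG, all copies: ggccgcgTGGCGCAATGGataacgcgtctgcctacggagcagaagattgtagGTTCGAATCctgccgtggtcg
Before C18A11.t2 (chrX:8036758-8036817, minus strand): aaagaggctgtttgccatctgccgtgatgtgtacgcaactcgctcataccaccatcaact
Before T06H11.t3 (chrX:10133044-10133103, minus strand): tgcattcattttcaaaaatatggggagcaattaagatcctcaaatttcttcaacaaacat
C18A11.t2 had a signal of 245 in the pooled list and 94.6 and 171 in the replicates. Its interval also holds the stronger summit, of signal 521, that lay 201 bp from the gene. The high value can therefore not be assigned to this copy alone. At T06H11.t3 the values were 55.9, 14.1 and 28.4. Its neighbour T06H11.t2, 220 bp away, had 180, 51.8 and 121. K01A12.t3 had 49.6, 14.9 and 37.9, from a region it shares with other tRNA genes. The gene nearest to that pooled summit is K01A12.t2, so these values cannot be assigned to K01A12.t3 alone. The other copies with a region lay between 131 and 161 and were reproducible, and T06H11.t3 and K01A12.t3 were below all of them in each replicate. T01C1.t1, the copy with no pooled region, had 53.4 in replicate 1 and 91.1 in replicate 2.

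Genes without a recognisable A box stood low. Over all 612 genes, 596 had an A box match, and 498 of these had a region and 307 a reproducible one. Of the 16 with no match, 6 had a region and 0 a reproducible one, with a median signal of 24.3 and a ratio to the list median of 1.45 ± 0.598, against 3.79 ± 0.325 for genes with a match (SD, n = 2). The ratio of genes with no match rests on 3 genes in replicate 1 and 5 in replicate 2. Of the 16, 15 have another gene of their isotype with a match, and lay 1 to 28 edits from the nearest of these. The result rests on the loose search window, which was examined further after the values were seen. Matches from base 7, 8 or 9 of the gene, the usual place, were found in 561 genes, of which 467 had a region and 290 a reproducible one. Matches elsewhere in the window, in 35 genes of which 28 were serine genes, gave 31 and 17. Counting these 35 as lacking the box, 37 of 51 had a region and 17 a reproducible one.

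An alanine gene with a changed A box can be set beside C11E4.t1, printed above. K09C6.t1 (chrV:857325-857396, plus strand) differs from it by G10A, which removes the match, G23T and T65A. K09C6.t1 also lacks a run of 4 T within 40 bp after the gene, so its A box is not its only unusual feature. Which of these features matters was not tested. K11H12.t1 (selenocysteine, chrIV:658181-658266, plus strand), T10B9.t1 (lysine, chrII:9773654-9773728, plus strand) and F49C5.t1 (tryptophan, chrII:12539597-12539668, plus strand) also lack an A box match, and the B box alone is in capitals.
K09C6.t1: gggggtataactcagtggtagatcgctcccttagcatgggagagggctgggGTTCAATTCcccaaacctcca
K11H12.t1: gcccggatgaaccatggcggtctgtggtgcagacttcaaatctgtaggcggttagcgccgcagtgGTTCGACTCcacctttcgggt
T10B9.t1: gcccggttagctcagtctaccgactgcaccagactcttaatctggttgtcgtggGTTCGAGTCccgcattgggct
F49C5.t1: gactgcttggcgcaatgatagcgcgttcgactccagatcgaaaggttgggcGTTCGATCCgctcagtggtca
K09C6.t1 had no region within 200 bp in any of the 3 lists, with the nearest pooled summit 14595 bp away. T10B9.t1 and F49C5.t1 had none either, with pooled summits 1129 bp and 2126 bp away. F49C5.t1 is 1 edit from the family of 10 identical tryptophan genes. Of these, 8 had a region and 2 a reproducible one. Their pooled signals ran from 55.0 at Y4C6B.t2 to 176 at sup-7, with a median of 73.3. K11H12.t1 was the strongest of the 16.

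A match to the B box letters separated the genes less. With a match there were 587 genes, 490 with a region and 299 with a reproducible one. Without one there were 25, with 14 and 8. Several of the 25 hold a near form of the box at the usual place, which the search letters miss. Among them are methionine genes of the initiator form and proline genes with anticodon AGG. The 25 therefore do not show what loss of the B box goes with. In the 201 bases around the summit, on both strands, the B box letters GTTCNANNC were found at 81.7% of the 542 regions and at 92.9% of the reproducible ones. They were found at 7.23% of the other nuclear reproducible peaks and at 8.45% of all nuclear regions. The narrower GTTCGANNC, whose matches are a subset, was at 60.1%, 71.4%, 2.88% and 3.06% of the same sets. A match is expected wherever a tRNA gene is in the window, so the first values follow from the rule. Over the nuclear regions not at tRNA genes, the 2 forms were at 7.10% and 2.01%. Beside these values, the other reproducible peaks held GTTCNANNC about as often (7.23%). They held the narrower GTTCGANNC somewhat more often (2.88%, 45 of 1564). The reason for this was not tested.

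Close pairs of tRNA genes had stronger regions than other tRNA genes. For the 16 genes with another tRNA gene within 100 bp, 15 had a region, 14 had a reproducible one (87.5%), and the median signal was 193. Their ratio to the list median was 6.91 in replicate 1 and 7.89 in replicate 2 (7.40 ± 0.693, SD, n = 2). For the 111 genes with the nearest neighbour at 101 to 300 bp, 94 had a region and 48 a reproducible one, with a ratio of 3.44 ± 0.0619. For the 109 genes at 301 to 1000 bp, the counts were 94 and 43 and the ratio 3.07 ± 0.29. For the 138 genes at 1001 to 10000 bp, they were 114 and 76, with 4.04 ± 0.157. For the 238 genes with no other tRNA gene within 10000 bp, the counts were 187 and 126 and the ratio 3.90 ± 0.476. Beyond 100 bp the ratio thus showed no steady change with spacing. The difference of close pairs from each of these groups was larger than the replicate spread. It rests on few regions, since the 14 genes share 7 regions.

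The 7 pairs were of several isotypes and orientations. F15G9.t1 and F15G9.t2 are described above. T23F1.t1 (lysine) and T23F1.t2 (proline) face each other 66 bp apart on V, with a signal of 333 when pooled and 139 and 193 in the replicates. W09G10.t2 (lysine) and W09G10.t3 (threonine) follow each other on II, with 250, 86.6 and 165. Y22D7AL.t3 (methionine) and Y22D7AL.t4 (glutamate) face each other on III, with 193, 49.6 and 141. C16B8.t2 and C16B8.t3, both proline, had 179, 53.3 and 130. W10G11.t1 (lysine) and W10G11.t2 (threonine) had 162, 74.8 and 82.4, and F49D11.t1 and F49D11.t2, both glycine, had 135, 41.8 and 87.7. In the eighth pair, K01A12.t1 had no region and K01A12.t5 had one with a pooled signal of 78.0.

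Neighbours were also counted around the summit, at the limit of 200 bp. The 492 regions with 1 tRNA gene within 200 bp had a median of 95.8 and the 50 with 2 or more had 102, a difference of 0.25 times the median of all regions. The difference was 3.42 times that median with a limit of 100 bp, in the same direction as for close pairs, and -0.87 times with 500 bp, so its size and sign hung on the limit. The region with the most tRNA genes, 3 of them, at K01A12.t2, had a signal of 49.6.

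By position, the X chromosome held 276 of the tRNA genes, and 237 (85.9%) of these had a region and 151 (54.7%) a reproducible one. On autosomes 267 of 336 (79.5%) and 156 (46.4%) did. The ratio to the list median was 4.06 ± 0.361 on X and 3.56 ± 0.308 on autosomes (SD, n = 2), a difference above either SD, with X higher in each replicate. Chromosome V had the lowest shares, with 58 and 31 of 78 genes. Genes between other genes (266 of 319, 168 reproducible) and genes in introns (231 of 283, 135 reproducible) had close shares. In introns, tRNA genes on the strand opposite to the host gene had a ratio of 3.98 ± 0.260 and those on the same strand 3.34 ± 0.290.

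Regions at tRNA genes were not mainly at promoters of protein-coding genes. Of the 542, 23.8% had the summit in a window from 1000 bp upstream to 200 bp downstream of a protein-coding transcript start, against 59.6% of other nuclear reproducible peaks and 35.5% of all nuclear regions. Inside and outside such windows, 52.7% and 52.1% were reproducible, and the median signals were 95.9 and 96.4.

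Regions within 200 bp of snoRNA or snRNA genes, which also make short non-coding RNAs and differ in promoter type, are the nearest kind for comparison. There were 286, with 99 (34.6%) reproducible and a median signal of 53.3, and 1 was also at a tRNA gene. Their highest signal, 1164, was above the highest at a tRNA gene.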

How the data were processed

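ChIP-seq of MADF-10 tagged with GFP and FLAG was done in 2 biological replicates of 1 group, per the labels. The authors deposited lists of regions on ce11 for each replicate and for both pooled, with a signal value per region (peaks with background regions), and a reproducible list made by an IDR threshold, per the deposited readme files. They used a control file that was not analysed here. The aligner, peak caller, its settings, the IDR threshold, the scale of the signal and the depth per sample were not given in the sources used here. Signal was compared only within a list, or as a ratio to the median of that list's nuclear regions.

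Regions were those with a summit within 200 bp of a gene of biotype tRNA (Ensembl release 115, WBcel235). Isotypes came from RefSeq records, which matched 612 of 612 genes, 607 with an isotype. Anticodons were found from the sequence in 598. A gene's signal is that of its strongest region. Pooled and reproducible regions were matched by position, summit and signal. Shares have exact binomial 95% intervals, and replicate values give mean ± SD (n = 2). Nothing says that the replicates differ in more than culture, so the SD measures these samples only. No test was run: there is 1 group. The members and lists were chosen with earlier results of these data known. Genes were named as the 10 strongest regions, the strongest of each isotype by nearest gene, the 5 weakest, the 3 with most tRNA genes, those of the isotypes with the highest and lowest share, and those nearest the 200 bp limit. Genes in close pairs, with changed boxes, or in the isoleucine and arginine families were picked after their values were seen. Distance functions were tested on simulated data. Python 3.11.15, pandas 2.3.3, numpy 2.4.6, scipy 1.17.1 and edlib were used.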

Additional observations from a re-analysis of the deposited data

How the results depend on the processing

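Of 33 alternative values for the 6 main results, 15 moved by no more than the allowed spread, 15 moved further and 3 reversed. The allowed spread was the exact interval for shares and the SD of the replicates for signals and positions. For counts of genes it was a fixed ratio to the main value, under which 481 to 532 counted as unmoved. The share of regions in the reproducible list was 58.2% at a limit of 100 bp. In the stronger 50% of that list it was 27.7%, against 3.08% of all nuclear regions. The ratio of the median signal to that of all regions was 4.50 at 100 bp, 3.89 at 500 bp and 3.36 for genes with no identical copy, and 3.19 and 3.50 with 1 replicate left out. Genes with a region numbered 307 when only reproducible regions counted, and 501 to 532 in single replicates. The median summit position was 15 bp at 100 bp, 23 bp for regions with 1 tRNA gene and 13 bp for reproducible ones, and 19 to 24 bp in single replicates. Presence in both replicates was 78.6% when summits had to lie within 100 bp. The difference between regions with 2 or more tRNA genes and those with 1 was 3.42 times the list median at 100 bp, and 0.537 to 1.14 in single replicates. It reversed to -0.87 at 500 bp, to -0.30 by overlap and to -1.07 with genes counted within 1000 bp, so no direction is claimed for it. The cause was not tested. No paired analysis was possible because there is 1 group. The unknown depth and the fixed length of the lists limit statements on weak regions.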

Other observations

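A run of 4 T within 40 bp after the gene was found at 605 of the 612 genes, 503 of them with a region. Of the 7 genes without such a run, 1 had a pooled region: W09G10.t3, the threonine gene of the tandem pair described above, which shares its region with W09G10.t2. In the list of replicate 1, 3 of the 7 had a region, against 529 of the 605. In replicate 2 it was 2 of the 7, against 499. The 50 bases before the gene were 56% A and T (median) where the region was reproducible, 58% where it was not and 62% at genes with no pooled region. After the gene the median was 74% in all 3 groups.

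Long genes, those over 80 bases or over 90 for leucine, serine and selenocysteine, include those with introns and were unlike by anticodon. Of 43, 25 had a region. The leucine CAA genes all had one, 15 of 19 tyrosine GTA genes did, and the glycine CCC genes had none.

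The 5 weakest regions were near F25F6.t2 (12.9), C29F7.t1 (12.9), B0491.t1 (12.9), DY3.t2 (13.6) and F22H10.t1 (13.8). At F25F6.t2, B0491.t1, C29F7.t1 and F22H10.t1 the gene had a second, stronger region, with a signal of 153, 80.1, 46.2 and 58.7. DY3.t2, to which RefSeq gives no isotype, had 1 region and none in replicate 2.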
